A study of Mus musculus with 12 samples.

Results

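Cholesterol is built from acetyl-CoA through mevalonate, farnesyl pyrophosphate and squalene, and 8 enzymes of that route, Hmgcs1, Idi1, Fdps, Fdft1, Sqle, Lss, Cyp51 and Dhcr7, are described here out of the 23440 genes of the deposited expression table. They were chosen by gene name, and the choice was made with results of these same libraries in view, so the calls and adjusted p-values of the 8 describe these libraries and are not independent evidence. The macrophages were bone-marrow-derived macrophages (BMDM) of mice labelled C57/BL6, given as a C57BL/6J background in the study's methods, and were grown from marrow in L929-conditioned medium. M-BKO cells came from mice with both Bmal1 alleles floxed and a Cre inserted in Lyz2, a driver active in the myeloid lineage, and WT cells came from Bmal1 floxed mice without Cre, so that all groups carried the floxed allele. Every culture was primed overnight with Ifn-γ, and M1 cultures then received LPS, a bacterial cell wall component, for 8 h, while control cultures received none. The 4 groups, M-BKO M1, WT M1, M-BKO control and WT control, had 3 cell culture replicates each, 12 libraries in all. How many mice gave the cultures is not stated, so p-values measure the spread between cultures only, and Bmal1 loss cannot be told apart from the Cre insertion in Lyz2.

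Hmgcs1 condenses acetyl units into the precursor of mevalonate, Idi1 interconverts the isoprene building blocks, and Fdps joins them into farnesyl pyrophosphate, which also feeds ubiquinone, dolichol and protein prenylation. Fdft1 (squalene synthase) commits farnesyl pyrophosphate to sterols, Sqle oxidises squalene, Lss closes it into lanosterol, Cyp51 removes a methyl group from lanosterol, and Dhcr7 carries out a last reduction to cholesterol. Transcription of these genes is driven by SREBP factors, which leave the endoplasmic reticulum with their escort Scap when sterols are low and are held back by Insig proteins when sterols or oxysterols are high. In macrophages the same cells also import, esterify and export cholesterol, and they make an oxysterol through Ch25h, which interferon and LPS are known to induce.

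Because the 7 tested enzymes moved together with M1, the bases just before the transcription starts of the 8 genes were sought in the RefSeq promoter table (GRCm38.p6). It holds 5 of the 8 genes: Hmgcs1, Idi1, Lss, Cyp51 and Dhcr7. Fdps, Fdft1 and Sqle are named only. A CCAAT box (CCAAT, either strand) lay within 250 bases before the start in 4 of the 5, against 34.5% of 27025 promoters of that length, and in 10 of 11 promoters of other enzymes of the route. The form TCACNCCAC of the sterol regulatory element was found in Hmgcs1 alone among the 5, from 137 to 129 bases before the start. It was found in 0 of the 11 others and in 1.04% of all. Hmgcs1 was listed at 0 TPM in all 12 libraries, so the match lies in an enzyme without a measured M1 response. The E-box CACGTG, the motif that Bmal1 and its partner Clock bind, was found in 0 of the 5 and in 2 of the 11, Hsd17b7 and Sc5d, against 6.05% of all. Motifs were searched on both strands, and no match below overlapped a match of another motif. Each gene was read at its first listed RefSeq start, and distances count from there. For Hmgcs1 and Lss that start lies upstream of the gene start in the deposited expression table. Capitals mark the sterol regulatory element of Hmgcs1 and each CCAAT box or its complement ATTGG. Dhcr7, the enzyme with the largest fall, is shown as the one without a match, at the first of its listed starts. A match is a description of the letters and not a measured binding site. Each motif was searched only in the form given, so other forms were not looked for. A promoter without a match is therefore not shown to lack such a site.
Hmgcs1, chr13:119690201-119690350, + strand: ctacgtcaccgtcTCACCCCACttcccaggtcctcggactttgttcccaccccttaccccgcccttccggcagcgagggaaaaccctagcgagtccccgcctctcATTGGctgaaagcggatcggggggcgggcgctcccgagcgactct
Idi1, chr13:8885506-8885605, + strand: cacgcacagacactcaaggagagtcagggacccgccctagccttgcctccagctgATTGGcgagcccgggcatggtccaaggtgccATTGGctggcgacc
Lss, chr10:76531505-76531604, + strand: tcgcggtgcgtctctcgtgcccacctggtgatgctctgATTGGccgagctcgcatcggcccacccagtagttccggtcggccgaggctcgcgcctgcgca
Cyp51, chr5:4104698-4104797, - strand: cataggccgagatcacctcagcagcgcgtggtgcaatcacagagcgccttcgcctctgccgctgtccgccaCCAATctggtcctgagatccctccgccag
Dhcr7, chr7:143823067-143823166, + strand: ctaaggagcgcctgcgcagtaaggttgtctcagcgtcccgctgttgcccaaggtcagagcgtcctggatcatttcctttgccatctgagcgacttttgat

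The deposited values are TPM, transcript abundances corrected for length and scaled to a sum of 1000000 in each library, from which the sequencing depth cannot be had. The libraries listed 13315 to 13574 genes above 0, with at least 13535 in the 3 M-BKO M1 libraries and at most 13421 in the other 9. WT control replicate 3 had the widest residuals from its group mean, with an SD of 0.143 on the log2 scale, against 0.0777 to 0.113 in the other 11. Arntl, the gene of Bmal1, was at 3.18 ± 0.189 TPM in M-BKO M1 and 5.36 ± 0.502 TPM in WT M1, and at 2.24 ± 0.252 TPM in M-BKO controls and 7.5 ± 0.232 TPM in WT controls (SD, n = 3 each), so transcripts of the gene were reduced and not lost. By the study's list of mice the floxed part is exon 8. TPM per gene cannot tell transcripts with that exon from transcripts without it. Lyz2, into which the Cre is inserted, took 0.00645% of all TPM in M-BKO M1 and 1.499% in WT M1, and 0.00549% in M-BKO controls and 3.30% in WT controls, and the genotype comparisons below are also given with TPM recomputed without it. All 8 macrophage markers were at 5 TPM or more in every group. The neutrophil and precursor markers, 6 of 7 found and mostly Ngp, summed to 12.3 to 12.6 TPM in M-BKO M1 and 8.69 to 9.57 TPM in WT M1, and to 41.3 to 49.6 TPM in M-BKO controls and 33.1 to 38.3 TPM in WT controls. This list thus moved in the same directions as the enzymes, with sums below the sums of the enzymes. Ngp alone averaged 34.5 TPM in M-BKO controls and 28.8 TPM in WT controls, above every enzyme except Fdps. The part of these markers in the differences of the enzymes was not tested. Dendritic cell markers summed to 58.7 to 66.2 TPM in M-BKO M1 and 64.5 to 70.2 TPM in WT M1, and to 62.3 to 66.9 TPM in M-BKO controls and 77.7 to 86.5 TPM in WT controls. These sums hide opposite shifts, as 2 of the 3 tested markers rose with M1 and 1 fell in each genotype. Clec9a averaged 60.8 TPM in M-BKO controls and 5.35 TPM in M-BKO M1, and 76.7 and 5.01 TPM in WT. Ccr7 averaged 1.095 TPM in M-BKO controls and 49.98 TPM in M-BKO M1, and 0.944 and 55.3 TPM in WT. Sums of fibroblast, T cell, B cell and erythroid markers were at 5.92 TPM or less in every library. In such bulk RNA, fewer cells of a type and less RNA per cell cannot be told apart.

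Hmgcs1 (chr13:119690462-119708077, mm10), the first enzyme of the 8 in the route, was listed at 0 TPM in all 12 libraries. Of its neighbours, Ccl28 and 1700074H08Rik were also listed at 0, while Zfp131 averaged 18.3 TPM over the 12 libraries. A listed 0 is not read here as absence of the transcript, no difference can be given for Hmgcs1, and the other 7 enzymes passed the filter of at least 1 TPM in at least 3 libraries.

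Idi1 (chr13:8885606-8892396) stood at 5.81, 5.19 and 6.52 TPM in M-BKO M1 and at 5.76, 3.93 and 5.05 TPM in WT M1. In controls it stood at 15.9, 14.5 and 15.1 TPM in M-BKO and at 9.23, 10.3 and 13.8 TPM in WT. The M1 libraries lay below the controls of their genotype without overlap, and the M-BKO controls lay above all WT controls, of which replicate 3 was set apart from the other WT cultures on the high side. Fdps (chr3:89093588-89101967) was the most abundant of the enzymes in every group. It measured 18.2, 19.2 and 20.1 TPM in M-BKO M1 and 16.1, 16.7 and 18.0 TPM in WT M1. Its control values were 73.3, 76.1 and 69.5 TPM in M-BKO and 49.99, 59.9 and 54.0 TPM in WT. The 4 groups of Fdps did not overlap in any of the comparisons.

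Fdft1 (chr14:63145150-63177793) was found at 5.40, 4.89 and 6.12 TPM in M-BKO M1 and at 4.46, 4.31 and 4.26 TPM in WT M1. Without LPS the values were 12.7, 12.6 and 12.1 TPM in M-BKO and 8.38, 9.30 and 8.27 TPM in WT. M-BKO libraries were above WT libraries in both states. Sqle (chr15:59315092-59331193), with squalene as its substrate and known as a rate-limiting step of the later route, read 5.96, 5.67 and 4.76 TPM in M-BKO M1 and 6.54, 4.06 and 4.98 TPM in WT M1. Its controls read 20.7, 20.3 and 20.5 TPM in M-BKO and 12.7, 14.3 and 15.7 TPM in WT. The genotypes were mixed after M1 and separate in controls.

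Lss (chr10:76531627-76553934), the cyclase that makes lanosterol, had the smallest contrast between states. It was at 6.83, 6.22 and 7.70 TPM in M-BKO M1 and at 7.17, 6.38 and 7.55 TPM in WT M1. Controls gave 12.03, 13.3 and 12.4 TPM in M-BKO and 10.4, 11.8 and 11.5 TPM in WT, with the lowest M-BKO value just above the highest WT value. Cyp51 (chr5:4080674-4104697), the lanosterol demethylase, gave 5.06, 5.38 and 5.54 TPM in M-BKO M1 and 4.06, 3.44 and 3.88 TPM in WT M1. Its controls gave 17.3, 16.7 and 15.3 TPM in M-BKO and 9.71, 11.3 and 11.5 TPM in WT, again with no overlap between genotypes in either state. Dhcr7 (chr7:143823167-143848410), which acts at the end of the route, was low after M1, at 1.71, 1.72 and 1.37 TPM in M-BKO and 1.66, 1.36 and 1.13 TPM in WT. In controls it was at 18.2, 17.0 and 18.2 TPM in M-BKO and at 14.4, 14.2 and 14.8 TPM in WT.

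**Figure D1:**
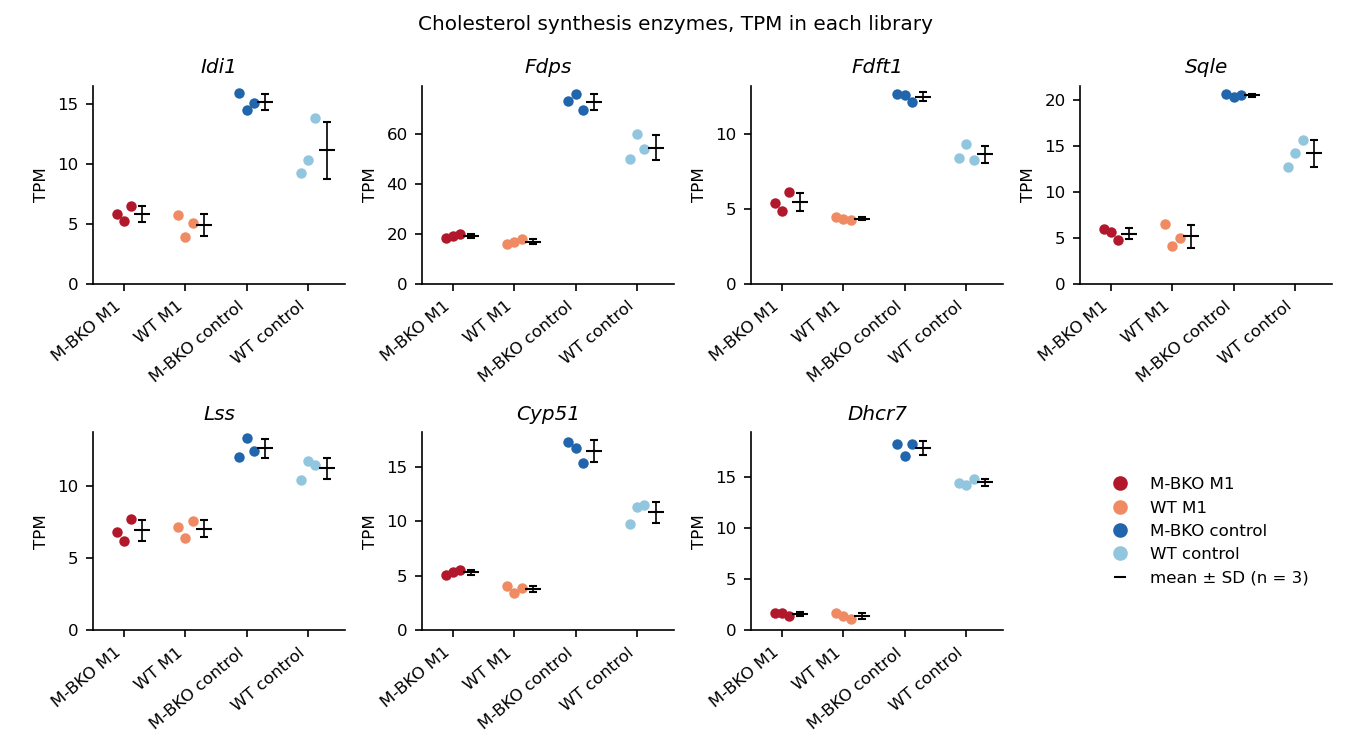
TPM of the 7 enzymes above 0 in each of the 12 libraries, with group means ± SD (n = 3) in black, groups from left to right M-BKO M1, WT M1, M-BKO control and WT control. In every panel both M1 groups lie below both control groups, and M-BKO controls lie above WT controls.

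Summed over the 7 enzymes, M-BKO M1 libraries held 49.0, 48.3 and 52.1 TPM and WT M1 libraries 45.7, 40.2 and 44.9 TPM. The control sums were 170, 171 and 163 TPM in M-BKO and 115, 131.0 and 129 TPM in WT. Fdps headed the order of the levels, which TPM allows because it is per transcript length, by a margin larger than the spread in all 4 groups, and Dhcr7 closed it after M1 in both genotypes, clear of its neighbour. Between those ends, neighbours in the order after M1 overlapped in their ranges from Lss down to Cyp51 in M-BKO and from Lss down to Fdft1 in WT. In controls Dhcr7 ranked among the higher enzymes, after Fdps and Sqle in M-BKO, where it overlapped with Cyp51, and next after Fdps in WT, where it overlapped with Sqle.

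The first question was how M1 activation changed the enzymes in each genotype. All 7 tested enzymes fell with M1 in both genotypes, by the call rule for M1 responses of an adjusted p under 0.05 and a fold over 1.5 (limma on log2(TPM + 1), Benjamini-Hochberg over 10822 genes). A fall was common among all genes: 42.3% were called lower and 12.3% higher in M-BKO, and 41.0% lower and 12.9% higher in WT. The enzymes' median log2 fold change was -1.46 in M-BKO and -1.30 in WT, against medians over all tested genes of -0.45 and -0.43. M1 libraries lay below controls without overlap for 7 of 7 enzymes in each genotype, where 66.5% of all tested genes did in M-BKO and 62.6% in WT.

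Dhcr7 fell the furthest, to 8.996% of the control mean in M-BKO and to 9.56% in WT, with log2 fold changes of -2.86 ± 0.0862 in M-BKO and -2.70 ± 0.0862 in WT (SE, adjusted p = 6.5e-13 and 1.2e-12). Only 80 tested genes had a lower fold change in M-BKO and 105 in WT. Fdps fell to 26.3% of the control mean in M-BKO and 31.0% in WT, at -1.87 and -1.63 on the log2 scale. A lower fold change than that of Fdps was found in 4.7% of tested genes in M-BKO and 6.3% in WT. Sqle came to 26.6% and 36.6% of the control means in M-BKO and WT (-1.74 and -1.31), Cyp51 to 32.4% and 35.0% (-1.46 and -1.30), and Idi1 to 38.5% and 44.3% (-1.24 and -1.03). The smaller falls were those of Fdft1, to 43.9% in M-BKO and 50.3% in WT (-1.06 and -0.85), and of Lss, to 54.9% in M-BKO and 62.7% in WT (-0.78 and -0.61). Percentages compare mean TPM. Fold changes include the added 1 TPM, and for a low gene such as Dhcr7 they are smaller than the ratio of the means.

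**Figure D2:**
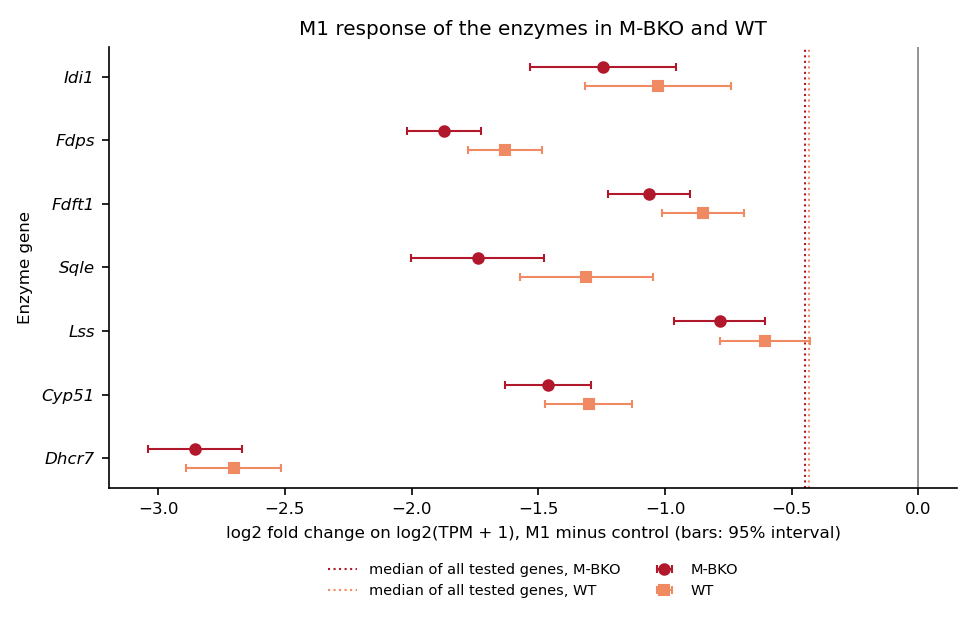
Log2 fold change of each enzyme with M1 (M1 minus control, log2(TPM + 1) scale) in M-BKO and WT, with 95% intervals, and the median of all tested genes as dotted lines. All 7 enzymes lie to the left of those medians, Dhcr7 furthest at -2.86 and -2.70 and Lss nearest at -0.78 and -0.61.

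The size of these falls depends on how libraries are scaled, since the median of all tested genes was itself shifted. Median-ratio scaling, which brings that median to 0.00 in both genotypes, left 22.1% of genes lower and 22.4% higher in M-BKO and 21.1% lower and 22.9% higher in WT. Under it 6 of the 7 enzymes were called lower in M-BKO and 5 in WT, with medians of -1.01 and -0.89, so all 7 kept a negative fold change. Lss moved to -0.34 in M-BKO and to -0.18 in WT, and Fdft1 to -0.44 in WT, short of the 1.5-fold minimum. In WT, Lss also missed the threshold for the adjusted p of limma (0.0546). Dhcr7 remained at -2.45 in M-BKO and -2.35 in WT. Lss in WT also fell short of the minimum without WT control replicate 2 (-0.57) and without WT M1 replicate 2 (-0.55).

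The next comparison set M-BKO against WT without LPS. Of the 7 enzymes, 4, Cyp51, Sqle, Fdft1 and Fdps, were called higher in M-BKO controls at an adjusted p under 0.05, and the M-BKO libraries lay above the WT libraries without overlap for all 7. Over all tested genes, 4.56% were called higher and 1.12% lower, and 22.6% had all M-BKO values above all WT values. The enzymes' median difference was 0.43 on the log2 scale, against 0.07 for all tested genes. Cyp51 showed the largest difference, 0.56 (95% interval 0.39 to 0.73, adjusted p = 9.6e-04), with mean TPM in M-BKO at 152% of WT. Sqle and Fdft1 were at 144% of WT, with differences of 0.50 and 0.48 (adjusted p = 0.0292 and 0.00194), and Fdps was at 134%, with 0.41 (adjusted p = 0.00273). Idi1 (0.43, adjusted p = 0.0801) and Dhcr7 (0.28, adjusted p = 0.0772) did not pass, nor did Lss, at 112% of WT (0.16, interval -0.02 to 0.33).

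Single libraries decided some of these calls. Without WT control replicate 3, Idi1 stood at 0.59 and was called (adjusted p = 0.00777). The Sqle call was lost without any of WT control replicates 1 and 2 or M-BKO control replicates 1, 2 and 3 (adjusted p = 0.0748, 0.0768, 0.098, 0.0906 and 0.0962), and Dhcr7 was called without WT M1 replicate 1 (adjusted p = 0.0469), which enters through the shared estimate of spread. Fdps, Fdft1 and Cyp51 were called whichever library was left out.

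After M1 the same comparison gave smaller differences. Of the 7 enzymes, 2 were called higher in M-BKO, Cyp51 with 0.40 (interval 0.23 to 0.57, adjusted p = 0.00681) and Fdft1 with 0.27 (interval 0.11 to 0.43, adjusted p = 0.0413), where 5.87% of all tested genes were called higher and 2.45% lower. Cyp51 stood at 141% and Fdft1 at 126% of the WT mean. M-BKO values lay above all WT values for 3 enzymes, Fdps, Fdft1 and Cyp51, which 20.8% of all tested genes also did. The other differences were 0.22 for Idi1, 0.17 for Fdps, 0.13 for Dhcr7, 0.08 for Sqle and -0.02 for Lss, with adjusted p-values from 0.137 to 0.897, and the median over the 7 was 0.17 against 0.03 for all genes. For Sqle the 95% interval ran from -0.19 to 0.34 and for Lss from -0.20 to 0.16. The Fdft1 call was lost without any of 7 libraries, WT M1 replicates 2 and 3, M-BKO control replicates 1, 2 and 3 and M-BKO M1 replicates 1 and 3, with adjusted p up to 0.15, whereas Cyp51 was called whichever library was left out.

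**Figure D3:**
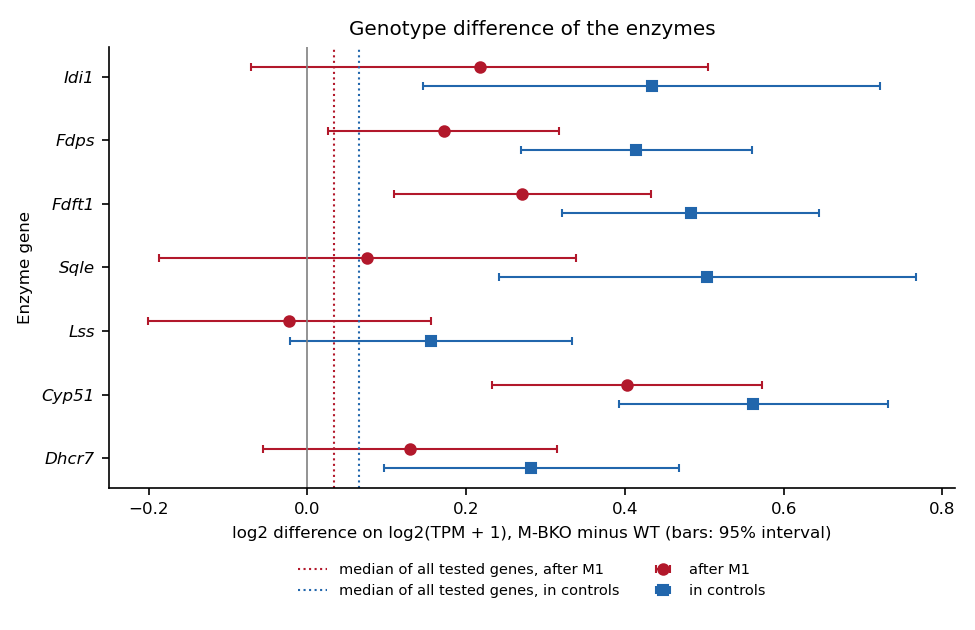
Difference between M-BKO and WT for each enzyme after M1 and in controls (M-BKO minus WT, log2(TPM + 1) scale) with 95% intervals, and the medians of all tested genes as dotted lines. In controls Cyp51 is furthest to the right at 0.56 and Lss least at 0.16, and after M1 the points range from -0.02 for Lss to 0.40 for Cyp51.

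Whether M1 acted differently in the genotypes was tested by the interaction, the log2 fold change with M1 of M-BKO less that of WT. It was below 0 for all 7 enzymes, from -0.43 for Sqle to -0.15 for Dhcr7, with a median of -0.21 against -0.03 for all tested genes, of which 1.38% were called. None of the 7 was called by limma at an adjusted p under 0.05. Fdps stood at -0.24 (adjusted p = 0.247) and Sqle at -0.43 (adjusted p = 0.259). The interval for Sqle ran from -0.80 to -0.06 and that for Cyp51 from -0.40 to 0.08. The interaction shares its control libraries with the genotype difference in controls, so the values of both belong side by side and do not count as separate evidence.

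Because Lyz2 holds 3.30% of all TPM in WT controls and almost none in M-BKO, every other gene is lowered in WT by construction. With TPM recomputed without Lyz2, the differences in controls were 0.52 for Cyp51, 0.46 for Sqle, 0.44 for Fdft1, 0.39 for Idi1, 0.37 for Fdps, 0.24 for Dhcr7 and 0.11 for Lss. In controls 3 of the 7 were then called, Cyp51, Fdft1 and Fdps, while Sqle had an adjusted p of 0.0609. After M1, Cyp51 alone was called (0.39, adjusted p = 0.00971), and Fdft1 had 0.25 (adjusted p = 0.0594). The shares of all tested genes called without Lyz2 are not given here, so these counts have no background beside them. Median-ratio scaling gave the same numbers of calls, 3 in controls and 1 after M1, where 1.32% of all genes were called higher and 1.74% lower in controls, and 3.85% higher and 4.40% lower after M1. Under it Cyp51 was at 0.49 in controls (adjusted p = 0.00185) and 0.37 after M1 (adjusted p = 0.0078).

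**Figure D4:**
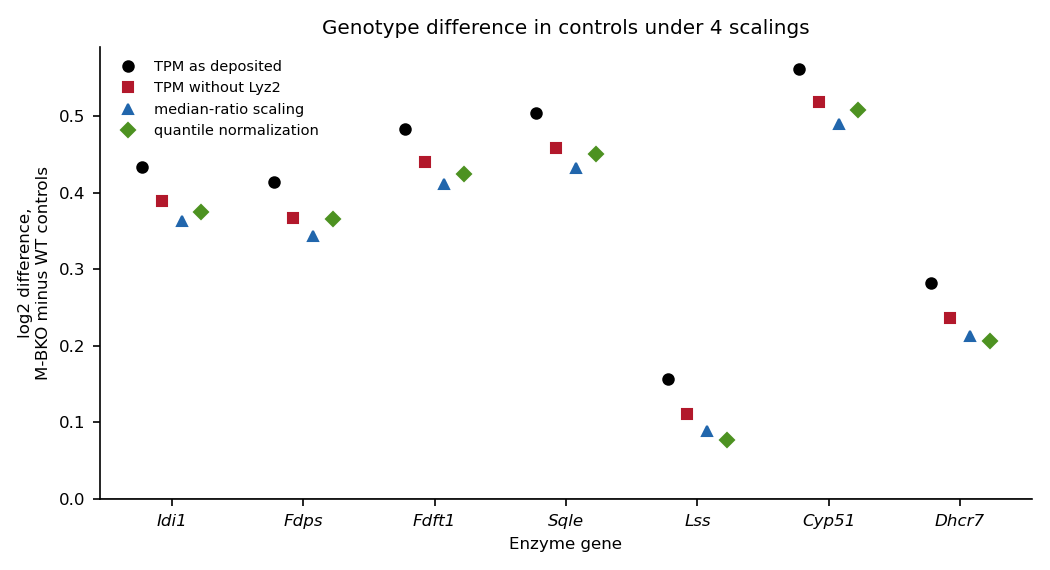
Difference between M-BKO and WT controls for each enzyme (M-BKO minus WT, log2(TPM + 1) scale) from TPM as deposited, from TPM without Lyz2, after median-ratio scaling and after quantile normalization. All points are above 0, and the deposited TPM give the highest of the 4 values for every enzyme, as 0.56 against 0.49 to 0.52 for Cyp51.

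The list of other enzymes of the route used here has 11 genes, and all were tested. With M1, 9 fell and 0 rose in M-BKO and 8 fell and 0 rose in WT, with median log2 fold changes of -1.48 and -1.42, and after median-ratio scaling 7 and 6 fell. Pmvk, which phosphorylates phosphomevalonate, fell by 1.82 in M-BKO and by 1.67 in WT on the log2 scale, Ebp, a sterol isomerase, by 1.74 and 1.68, and Sc4mol (also Msmo1, which oxidises sterol methyl groups) by 1.68 and 1.42. Nsdhl, Lbr and Tm7sf2, which also act on sterol rings, fell by 1.48 to 1.60 in both genotypes. The exceptions in both genotypes were Acat2 and Mvd. Acat2, a thiolase, had -0.11 in M-BKO and 0.12 in WT. Mvd, which makes isopentenyl pyrophosphate, had -0.15 in M-BKO and 0.12 in WT. After median-ratio scaling both genes were above 0 in both genotypes. Mvk fell by 1.03 in M-BKO and by 0.68 in WT, where it was short of the fold minimum without WT control replicate 1 (-0.50). Hsd17b7 fell in both, and Sc5d fell in M-BKO and had -0.56 in WT, short of the minimum.

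Between genotypes, 3 of the 11 were called higher in M-BKO controls and 1 after M1, and none was called lower, where 4.56% of all tested genes were called higher in controls and 5.87% after M1. The count of 1 after M1 is near that share. In controls these were Mvd (0.50, adjusted p = 0.0101), Sc4mol (0.35) and Pmvk (0.20). Mvd stood at 14.1, 13.2 and 11.8 TPM in M-BKO controls and 9.91, 9.26 and 7.71 TPM in WT controls. All 11 differences in controls were above 0, with a median of 0.20, except that Nsdhl stood at -0.02 after median-ratio scaling. Sc4mol and Pmvk were not called without Lyz2 or after median-ratio scaling, and the numbers called over all alternatives ran from 0 to 5. Tm7sf2 was the enzyme called after M1 (0.32, adjusted p = 0.03), and in 8 of the 12 fits that left out a library.

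A list of 12 genes was taken as regulators of the SREBP pathway. Of them, Mbtps1 and Mbtps2, the proteases that release SREBP from the membrane, and Scap fell with M1 in both genotypes. Their log2 fold changes were -1.11, -0.70 and -0.87 in M-BKO and -1.01, -0.97 and -0.69 in WT. Of these 3, Mbtps1 in M-BKO was the only call left after median-ratio scaling. Srebf2, the SREBP gene that mainly serves cholesterol synthesis, was at 34.5, 33.6 and 37.0 TPM in M-BKO M1 and 33.0, 32.1 and 33.6 TPM in WT M1. Its controls were at 54.2, 54.1 and 52.0 TPM in M-BKO and at 47.5, 45.3 and 36.0 TPM in WT. It was called lower with M1 in M-BKO (-0.60) and not in WT (-0.36), a difference between genotypes that did not pass the interaction test (-0.23, adjusted p = 0.34), and after median-ratio scaling it stood at -0.11 in M-BKO and 0.10 in WT. Its call in M-BKO was short of the fold minimum without M-BKO M1 replicate 2 (-0.57). Srebf2 was called higher in M-BKO controls (0.32, adjusted p = 0.035), though neither without Lyz2 nor after median-ratio scaling. Insig1, which retains SREBP when sterols are high, had 0.44 in M-BKO and 0.42 in WT, under the fold minimum in TPM and called higher in both after median-ratio scaling. Srebf1 had -0.01 in M-BKO and 0.40 in WT, and after median-ratio scaling 0.46 and 0.85, the value in WT being called. Its difference between genotypes did not pass the interaction test. Among the fits that left out 1 library, it passed only without WT control replicate 1 (adjusted p = 0.0346). Ubxn8 was the gene of the list called higher with M1, at 0.62 in M-BKO whichever library was left out. In WT it had 0.55, under the fold minimum. Its place among SREBP regulators rests on the list alone and was not tested. After median-ratio scaling Ubxn8 was called higher in both genotypes, at 1.06 in M-BKO and 0.98 in WT. The medians of the list, -0.33 in M-BKO and -0.37 in WT, turned to 0.15 and 0.10 under median-ratio scaling, so no common direction is given for the regulators.

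Neighbouring pathways were counted in the same fit, and their counts stand beside the 42.3% of all tested genes called lower and 12.3% higher in M-BKO, and the 41.0% lower and 12.9% higher in WT. Of 11 tested enzymes of fatty acid synthesis and desaturation, 7 fell and 1 rose with M1 in each genotype, with Fads1, a desaturase, at -2.59 in both and Me1, a source of NADPH, at 1.30 in M-BKO and 1.28 in WT. Of 14 genes of the non-sterol branches, 8 fell in M-BKO and 9 in WT and 0 rose in either, and Coq2, which joins the isoprenoid tail to the ubiquinone ring, was lowest at -1.98 and -2.04. Among 12 tested genes of oxysterol and sterol handling, 6 fell and 2 rose in each genotype. Cyp27a1, a sterol hydroxylase, had the largest fall there, -3.36 in M-BKO and -3.15 in WT, and the 2 that rose were Soat1, which esterifies cholesterol, at 0.91 and 0.999, and Ch25h at 0.85 and 0.82. Of 7 genes of the LXR receptors and their targets in sterol efflux, 2 rose in M-BKO and 4 in WT, and 1 fell in each, Lpcat3. Mylip, an LXR target whose product degrades lipoprotein receptors, rose by 2.09 and 2.11, and Nr1h3, the gene of LXRα, by 1.4997 and 1.54. After median-ratio scaling 5 fatty acid genes fell in M-BKO and 3 in WT, 3 genes of the non-sterol branches fell in each genotype, 4 genes of sterol handling fell and 3 rose in each, and 4 LXR genes rose and 0 fell in each. Under that scaling 22.1% of all tested genes were called lower and 22.4% higher in M-BKO, and 21.1% lower and 22.9% higher in WT, so the counts of the non-sterol branches that fell, and of sterol handling that rose, were near those shares.

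**Figure D5:**
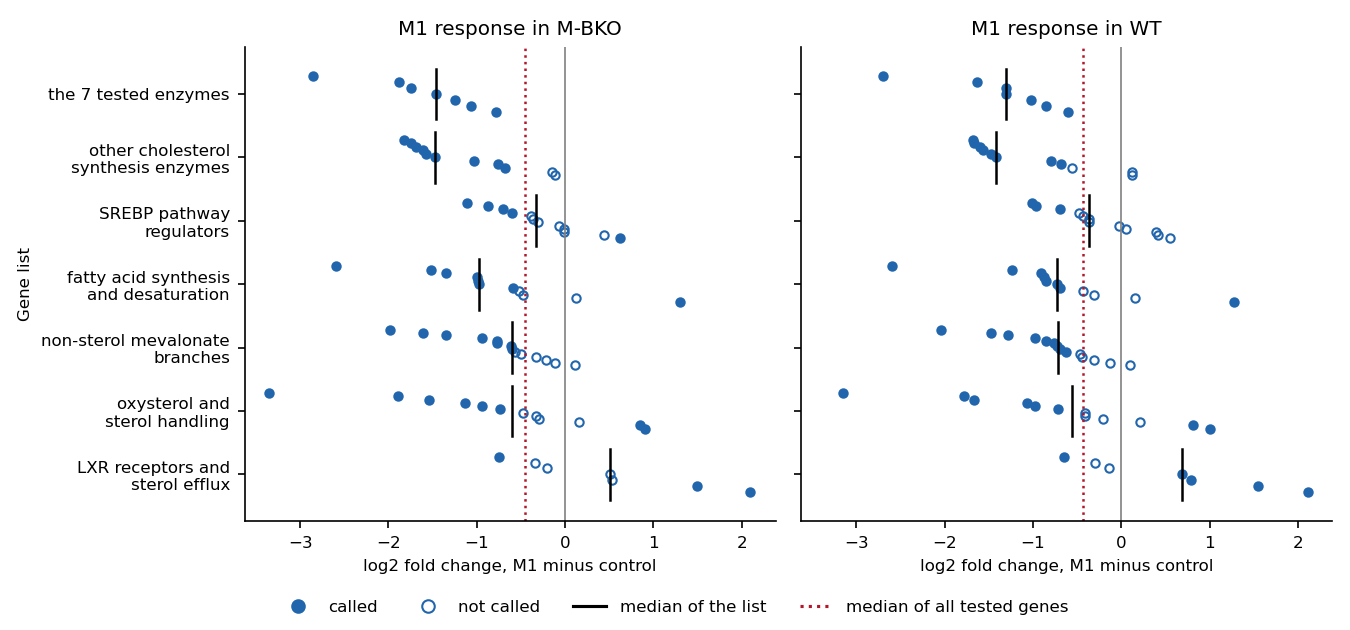
Log2 fold change with M1 (M1 minus control, log2(TPM + 1) scale) of every tested gene in 7 lists, in M-BKO on the left and WT on the right, with filled points for called genes, a bar at each list's median and a dotted line at the median of all tested genes. The 7 enzymes and the other cholesterol synthesis enzymes have the lowest medians, -1.46 and -1.48 in M-BKO and -1.30 and -1.42 in WT, and the LXR list the highest.

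Genotype differences outside the synthesis route went in both directions. Of the 12 tested genes of sterol handling, 4 were called higher and 2 lower in M-BKO after M1, and 2 higher and 1 lower in controls. Over all tested genes in TPM, higher calls made up 5.87% and lower calls 2.45% after M1, with 4.56% and 1.12% in controls. Median-ratio scaling left sterol handling with 3 higher and 2 lower calls after M1, and with 0 higher and 1 lower in controls. Lipa, the lysosomal lipase that frees cholesterol from its esters, was at 270.1, 265.6 and 264.9 TPM in M-BKO M1 and 218.7, 201.1 and 209.2 TPM in WT M1. It was called higher in M-BKO after M1 (0.35, adjusted p = 0.00244) whichever library was left out, without Lyz2 and after median-ratio scaling. In controls Lipa was at 806.2, 752.9 and 771.6 TPM in M-BKO and 645.5, 619.8 and 744.8 TPM in WT, and was called (0.22, adjusted p = 0.0432), though in 9 of 12 fits that left out a library it was not (adjusted p up to 0.169), nor without Lyz2 or after median-ratio scaling. Ch25h was called lower in M-BKO in both states, at 102 TPM in M-BKO M1 and 128 TPM in WT M1 (-0.33, adjusted p = 0.0382) and at 55.8 TPM in M-BKO controls and 73.1 TPM in WT controls (-0.37, adjusted p = 0.0305), calls that were also made without Lyz2 and after median-ratio scaling. Leaving out 1 library ended the call after M1 in 9 of 12 fits and that in controls in 5 of 12, with adjusted p up to 0.122 in each. Besides Ch25h, Cyp27a1 was the gene of sterol handling called lower in M-BKO after M1. Its call was lost in 5 of 12 fits that left out a library. Of the 7 LXR genes, 2 were called higher and 2 lower in M-BKO after M1, and 2 and 1 in controls. After median-ratio scaling 0 were called higher and 3 lower after M1, and 0 and 1 in controls. Abcg1, a cholesterol exporter of the LXR list, was called lower in M-BKO after M1 (-0.33) and in controls (-0.26), whichever library was left out. Npc1, a sterol handling gene that moves cholesterol out of lysosomes, was called higher after M1 (0.20) and in controls (0.22). The call after M1 was lost without WT M1 replicate 3 or M-BKO M1 replicate 1 (adjusted p up to 0.0582). The call in controls was lost after median-ratio scaling (adjusted p = 0.0506).

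The enzymes followed each other closely over the 12 libraries, with Pearson correlations of log2(TPM + 1) from 0.94 to 0.99 over their 21 pairs. All points share the step between M1 and control. After removal of the group means the correlations ran from -0.62, for Dhcr7 with Fdps, to 0.72, for Cyp51 with Idi1, and 16 of 21 were above 0. As a description with no test, the genes most like the mean standardised profile of the enzymes, among 8086 candidates with a mean of at least 5 TPM, included Txndc5, Bzw2, Parvb, Lyar, Ostc, Dock10, Nxpe5, Id3 and Pdia6, with correlations from 0.994 to 0.995. A correlation over 0.95 was reached by 3165 candidates. Sc4mol ranked 24, Lbr 93, Ebp 121 and Pmvk 382 among them. Mvd (0.19) and Acat2 (0.09) were far down the order, and Insig1 (-0.81), Ch25h (-0.96) and Nr1h3 (-0.98) ran opposite to the enzymes.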

How the data were processed

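Stranded mRNA libraries were sequenced from 12 BMDM cultures, grouped by the labels. Reads were trimmed and aligned to mm10, and TPM per gene were deposited by the authors from CLC Genomics Workbench. No fold changes or p-values of the authors were used. Depth is unknown, and precision rests on the spread between cultures.

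The TPM were tested as log2(TPM + 1) with limma 3.58.1 in R 4.3.3 (4 group means, variance trend) for the 10822 of 23440 genes that reached 1 TPM in 3 or more libraries, with Benjamini-Hochberg adjustment in each of 5 comparisons. Calls required an adjusted p under 0.05, and for M1 responses also a fold over 1.5. The fit was tested on simulated data.

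The 8 enzymes and all lists were chosen with earlier results of these data known, and some genes of the pathway are not reported here. All 8 are named, genes of the lists of other synthesis enzymes and SREBP regulators may be, and of other lists at most 3 called genes per direction by adjusted p. Alternatives changed the pseudocount (0.1 or 5 TPM), filter (none or 5 TPM), scaling, TPM total, variance model, fold minimum, libraries and replicate block.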

Additional observations from a re-analysis of the deposited data

Results flagged for a closer look

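The M1 response differed between genotypes for both genes used as checks of the genotype. For Lyz2 the log2 fold change with M1 of M-BKO less that of WT was 1.35 (limma, adjusted p = 7.9e-04), with means of 64.5 TPM in M-BKO M1 and 14990 TPM in WT M1, and 54.9 TPM in M-BKO controls and 33010 TPM in WT controls. For Arntl it was 0.79 (adjusted p = 0.00392). All 3 M-BKO M1 libraries were above all M-BKO controls for Arntl, at 3.18 TPM against 2.24 TPM, while all 3 WT M1 libraries were below all WT controls, at 5.36 TPM against 7.5 TPM. After median-ratio scaling the response of Arntl was 0.72 in M-BKO and -0.01 in WT.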

How the results depend on the processing

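The counts of enzymes called were 7 for the M1 response in each genotype, 2 between M-BKO and WT after M1, 4 in controls and 0 in the interaction. After M1 the genotype count was 1 with a pseudocount of 5 TPM, no filter, median-ratio scaling, quantile normalization, TPM without Lyz2, TPM without the 50 most abundant genes, only the groups compared or the replicate block, the enzyme lost being Fdft1 each time, and the M1 count in WT was 4 after quantile normalization. Leaving out 1 library gave 1 to 2 between genotypes after M1, 3 to 5 in controls, 6 to 7 and 7 to 7 for the M1 response in WT and M-BKO, and 0 to 0 in the interaction. Same-numbered libraries of different groups had residual correlations from -0.249 to 0.258, and 5 of 12 libraries were closest to their own number. No pairing is stated, and with so few libraries these values cannot decide whether one exists. With the replicate block the other counts were 7, 7, 4 and 0. Among single enzymes 3 values changed sign, all uncalled and between genotypes after M1. Leaving out 1 library gave Sqle from -0.0607 (without WT M1 replicate 2) to 0.227, and Lss from -0.0926 to 0.0421 (without M-BKO M1 replicate 2), with 0.0239 without WT M1 replicate 3. The causes of these changes were not tested. Quantile normalization took Idi1 in WT to -0.53 and Fdft1 in M-BKO to -0.54, short of the fold minimum. The unknown number of reads limits what can be said of low values such as Dhcr7 after M1.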
